A study of Mus musculus with 9 samples.

Results

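The genes described here are 37 mouse genes of the PPARA and fatty acid oxidation programme, chosen by symbol from the 22173 genes of the expression table, which lists all 37. By the place or role of their products, 17 were grouped as mitochondrial, 10 as peroxisomal and 2 as Cyp4a cytochromes P450. The other 8 form a mixed group, called uptake, storage and signalling. It also holds the acyl-CoA activating enzyme Acsl1, the cytosolic thioesterase Acot1 and the kinase Pdk4. RNA was read in 9 libraries labelled cholangiocyte, the epithelial cell of the bile ducts, with 3 libraries each from mice with a sham operation, mice with bile duct ligation (BDL), and BDL mice that also received senkyunolide A, a phthalide of Ligusticum chuanxiong. Ligation blocks bile flow and causes cholestasis. Strain, age, sex, dose, day of sampling and the way the cells were isolated are not stated in the sources used here. The group with BDL plus senkyunolide A is also called the treated group.

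Fatty acids enter oxidation as acyl-CoA. Long chains pass into mitochondria as carnitine esters and are shortened there by acyl-CoA dehydrogenases, hydratases, 3-hydroxyacyl-CoA dehydrogenases and thiolases. Peroxisomes run a parallel pathway for very long and branched chains, and Cyp4a enzymes of the endoplasmic reticulum hydroxylate the far (omega) end of the chain. PPARA is a nuclear receptor that binds fatty acids, pairs with RXR and switches on all these steps in hepatocytes, most of all in fasting. In mouse liver, Cyp4a10, Cyp4a14, Ehhadh, Acaa1b, Acot1 and Vnn1 are among its classical targets.

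The libraries carried chiefly hepatocyte RNA. The summed level of 26 hepatocyte markers was 67406 to 88761 FPKM (fragments scaled to transcript length and library depth) in the sham libraries, 65451 to 77521 after ligation and 62135 to 87858 in the treated group, and no marker was at 0. The 22 biliary epithelial markers summed to 74.2 to 102, 149 to 675 and 122 to 483 FPKM, and Cftr, Sctr, Cldn4, Ggt1 and Mmp7 were among those listed at 0 in at least 1 library. BDL plus senkyunolide A library 1 stood apart: on the first principal component of all tested genes, with 53.8% of the variance, it lay at -16.9. Libraries 2 and 3 of its group lay at 26.7 and 40, the BDL libraries at 14.7 to 40.1 and the sham libraries at -49.6 to -37.5. Counts of calls among the 37 genes are given with and without library 1 of the treated group, and so are the values of some of them. Depth, estimated from the spacing of low values, was 27.4 to 33.7 M fragments per library. In bulk RNA, fewer cells of a type and less RNA per cell cannot be told apart.

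**Figure D1:**
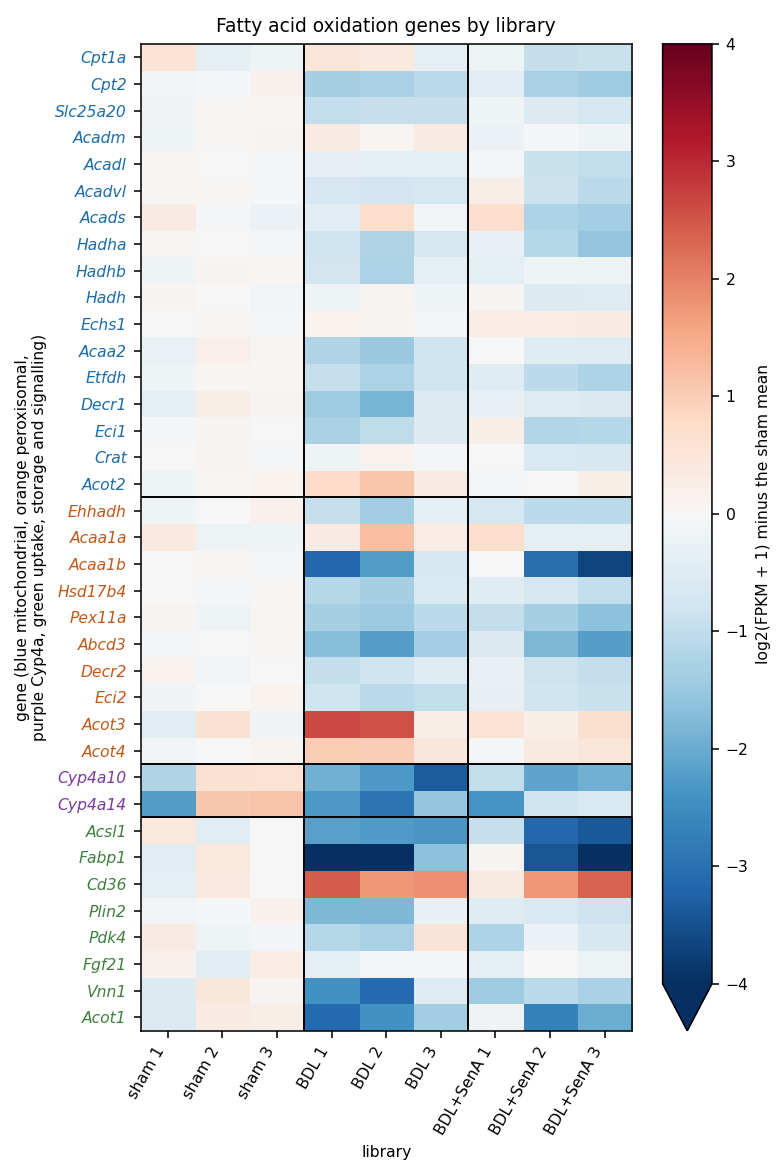
Level of the 37 genes (rows, grouped by role) in the 9 libraries (columns), as log2(FPKM + 1) minus the mean of the 3 sham libraries; blue is lower and red higher than sham, and the scale ends at 4 in both directions. Most rows are blue in the BDL libraries, Cd36, Acot2, Acot3 and Acot4 are red there, and BDL plus senkyunolide A library 1 is paler than libraries 2 and 3.

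The comparison of BDL with sham asked what ligation did to these genes. Of the 37 genes, 36 had a mean of at least 1 FPKM over the 9 libraries and were tested, all but Fgf21. Ligation lowered 15 of the 36 and raised 3 at an adjusted p under 0.05 (limma on log2(FPKM + 1) over 9884 genes, Benjamini-Hochberg). Over all tested genes the share called lower was 2.84% and the share called higher was 8.12%. At an unadjusted p under 0.05, 23 were lower, against 7.2% of all tested genes. In 22 every BDL library lay below every sham library, against 8.96% of all tested genes. The calls depended on single libraries, with 1, 0 and 1 genes passing as lower without sham 2, sham 3 and BDL 2. Over all genes the lower calls went from 281 to 33, 28 and 29 in the same fits. Each of the 18 calls held in 3 to 8 of the 9 fits that left out 1 library. None of the 18 called genes changed direction under any alternative run. Without library 1 of the treated group 22 passed as lower and 4 as higher, against 4.6% and 13.2% of all tested genes. That library enters this comparison only through the estimate of the spread and the set of genes tested (9884 with it, 9917 without). The genes gained were Acadvl, Hadha, Hadhb, Eci1, Ehhadh, Decr2, Acaa1b and, as higher, Acot2 (limma adjusted p = 0.0122 to 0.0436). With all libraries, the median log2 difference of all 37 genes was -0.91, against 0.15 over all tested genes. By role the median was -0.70 for mitochondrial genes, -0.93 for peroxisomal genes, -2.39 for both Cyp4a genes and -1.66 for the uptake, storage and signalling genes. The called falls were 5 of 17, 4 of 10, 1 of 2 and 5 of 7 tested, in the same order. The differences between roles were not tested.

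Of the 26 hepatocyte markers 2 fell, transthyretin (Ttr) and glucose-6-phosphatase (G6pc), named after their values were seen. None rose, and the median log2 difference was 0.09. Over all tested genes 2.84% were called lower and 8.12% higher in this fit. When all libraries were scaled to the geometric mean of 10 secreted hepatocyte proteins, 11 of the 36 genes passed as lower and 4 as higher, against 1.87% and 10.1% of all tested genes. Macrophage and monocyte markers rose in the same libraries, 10 of 18, with sums of 955 to 1524 FPKM in BDL and 342 to 467 in sham. Neutrophil markers, of which 3 of 4 tested rose, summed to 39.8 to 67 and 3.25 to 6.65 FPKM. Of the biliary markers 4 of 11 tested rose. These rises stand against 8.12% of all tested genes called higher. No adipocyte marker was high enough to be tested. The part of these cells in the results was not tested.

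Cyp4a10 and Cyp4a14 lie close together on chromosome 4 (115518287 to 115533649 and 115486200 to 115496158, GRCm38). Cyp4a10 read 53.1, 193 and 188 FPKM in sham libraries 1, 2 and 3, 32.1, 24.3 and 11.6 in BDL, and 61.9, 28.2 and 32 in BDL plus senkyunolide A. Every BDL library lay below every sham library, and sham 1 was far below the other sham libraries. Cyp4a10 fell in BDL by 2.52 ± 0.52 (SE) on the log2 scale (limma adjusted p = 0.0153). Cyp4a14 read 11.3, 122 and 126 FPKM in sham, 10.8, 6.46 and 18.6 in BDL, and 10.2, 31.9 and 37 in BDL plus senkyunolide A. Sham 1 was at the level of the BDL libraries, so the groups overlapped. The log2 difference of -2.27 ± 0.80 did not pass (limma adjusted p = 0.0918), whereas without sham 1 it was -3.38 and passed (adjusted p = 0.0145). In the transcript annotation, 12.2% of the windows of 100 bases of Cyp4a10 also occur in other genes, chiefly Cyp4a32, so its reads may have been divided, while Cyp4a14 shares none.

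**Figure D2:**
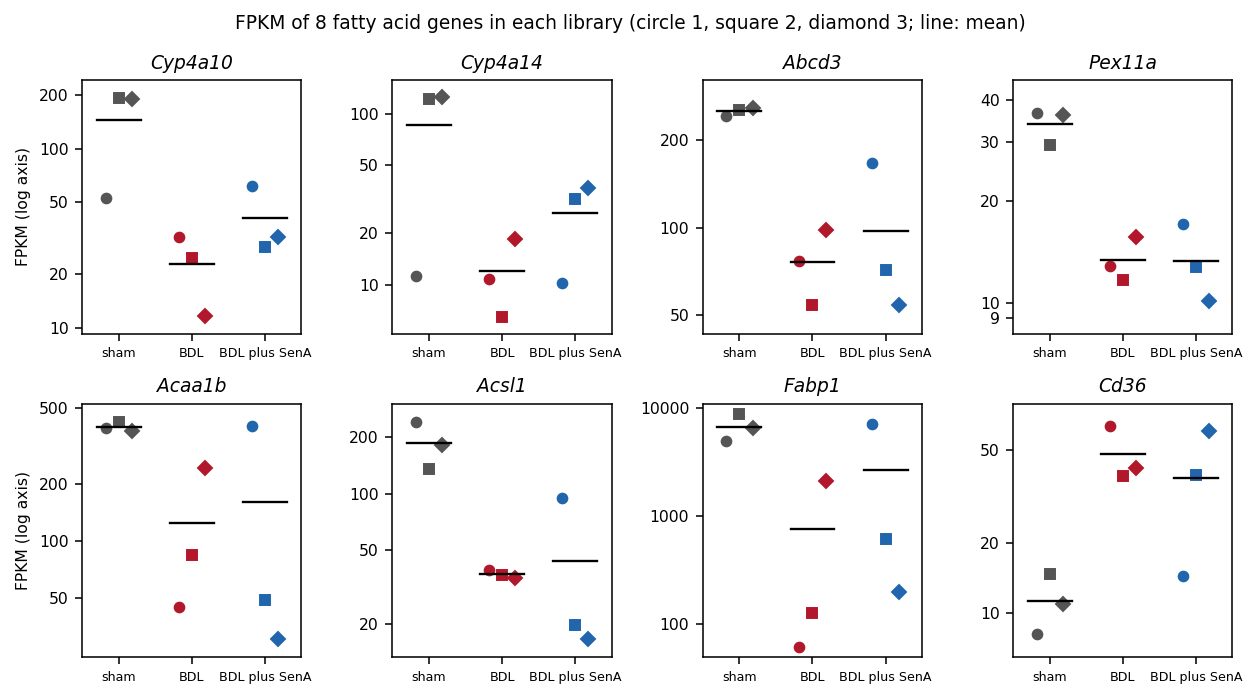
FPKM on a logarithmic axis of 8 genes in each of the 9 libraries, by group; circles, squares and diamonds are libraries 1, 2 and 3, the line is the group mean and SenA is senkyunolide A. Sham 1 stands low for Cyp4a10 and Cyp4a14 (53.1 and 11.3 FPKM), and BDL plus senkyunolide A library 1 is within the sham range for Acaa1b and Fabp1 (402 and 7142 FPKM).

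Peroxisomal genes fell at several steps of the pathway. Abcd3, which encodes the membrane transporter that carries long-chain acyl-CoA into peroxisomes (chromosome 3, 121758904 to 121815302), read 242, 255 and 257 FPKM in the sham libraries and 76.4, 53.9 and 97.8 in BDL. It fell by 1.75 ± 0.37 on the log2 scale (limma adjusted p = 0.0181). Pex11a, a peroxisome division factor on chromosome 7 (79735957 to 79743131), read 36.6, 29.3 and 36 FPKM in the sham libraries and 12.8, 11.7 and 15.7 in BDL. Its fall of 1.28 ± 0.23 had the smallest p of the 36 genes (limma adjusted p = 0.0095). Neither gene overlapped between the groups.

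Hsd17b4, the bifunctional hydratase and dehydrogenase of branched and very long chains, read 194, 190 and 204 FPKM in the sham libraries and 88.2, 77.7 and 127 in BDL. It fell by 1.03 ± 0.24 (limma adjusted p = 0.0248). Eci2, an enoyl-CoA isomerase, fell by 0.96 ± 0.22 (limma adjusted p = 0.0205), from 55.5 ± 5.85 to 28.1 ± 2.8 FPKM (SD, n = 3). Ehhadh, the other bifunctional enzyme, read 127, 141 and 162 FPKM in the sham libraries and 75.1, 53.7 and 109 in BDL, without overlap. Its log2 difference of -0.90 ± 0.27 did not pass (limma adjusted p = 0.0559), nor did that of the dienoyl-CoA reductase Decr2 (-0.75 ± 0.23, limma adjusted p = 0.0628), which did not overlap either.

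The last step of peroxisomal oxidation is the thiolase, which mice encode in the near-identical genes Acaa1a and Acaa1b on chromosome 9 (119341028 to 119350296 and 119148043 to 119157093). Acaa1b read 394, 424 and 380 FPKM in sham, 44.6, 83.7 and 244 in BDL, and 402, 48.2 and 30.3 in BDL plus senkyunolide A. Acaa1a read 63.8, 41.3 and 42.4, then 60.9, 112 and 58.9, then 78.4, 36.9 and 37.4 FPKM. Every BDL library lay below every sham library for Acaa1b, whereas the groups overlapped for Acaa1a. The log2 differences were -2.03 ± 0.82 for Acaa1b (limma adjusted p = 0.132) and 0.61 ± 0.35 for Acaa1a (limma adjusted p = 0.281), and neither passed. Acaa1b passed (limma adjusted p = 0.0133) when library 1 of the treated group was left out. That library is used here only for the estimate of the spread and the set of genes tested.

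The longest open reading frames of both genes have 1275 bases and are identical at 96.5% of them. The stretch of 60 bases with the most differences is shown because reads can be told apart only where the genes differ. It spans coding bases 259 to 318, read 5′ to 3′ from the GENCODE M21 transcripts, with the 11 differing bases in capitals.
Acaa1a: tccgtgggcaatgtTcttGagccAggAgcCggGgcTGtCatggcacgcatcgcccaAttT
Acaa1b: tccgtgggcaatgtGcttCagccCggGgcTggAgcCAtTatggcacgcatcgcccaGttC
Of the windows of 100 bases, 19.3% of those of Acaa1b and 7.21% of those of Acaa1a are found in the other gene. How the authors counted reads that match both is not stated, so the levels of both genes are uncertain.

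Of the mitochondrial genes, Cpt2, Slc25a20, Etfdh, Acaa2 and Decr1 fell. Cpt2, the inner carnitine palmitoyltransferase, read 63.8, 64.8 and 76.9 FPKM in the sham libraries and 26.8, 27.1 and 32.2 in BDL. It fell by 1.23 ± 0.26 on the log2 scale (limma adjusted p = 0.0184). Slc25a20, the carnitine-acylcarnitine carrier, read 63.2, 73.5 and 75 FPKM in the sham libraries and 35, 36.9 and 36.3 after ligation, and fell by 0.94 ± 0.21 (limma adjusted p = 0.0194). The groups did not overlap for either gene. Cpt1a, the outer carnitine palmitoyltransferase and the regulated step of entry, read 79, 41.6 and 47.3 FPKM in the sham libraries and 76.4, 71.1 and 40.6 in BDL. Its groups overlapped, and the difference of 0.16 on the log2 scale (95% interval -0.56 to 0.89) did not pass (limma adjusted p = 0.788).

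Of the 4 straight-chain acyl-CoA dehydrogenases, which open each round of oxidation, none passed in limma, and 1 (Acadvl) had an unadjusted p under 0.05. Acadvl, for very long chains, had means of 184 ± 8.82 and 113 ± 5.21 FPKM in the sham and BDL groups (SD, n = 3; log2 difference -0.70 ± 0.31, limma adjusted p = 0.162), and Acadl, for long chains, 77.8 ± 4.13 and 59.5 ± 1.4 (-0.38 ± 0.25). Neither gene overlapped between the groups. The genes Acadm and Acads for medium and short chains overlapped and had log2 differences of 0.24 ± 0.20 and 0.06 ± 0.49. In the annotation, 42.8% of the exonic bases of Acadvl also lie in exons of Dvl2 on the opposite strand. Without stranded counting, reads of the 2 genes there cannot be told apart.

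Etfdh, which passes electrons from these dehydrogenases to the respiratory chain, read 113, 135 and 134 FPKM in the sham libraries and 65.8, 52.4 and 72.1 in BDL. It fell by 1.0 ± 0.24 (limma adjusted p = 0.0276). Acaa2, the mitochondrial thiolase, was the most abundant mitochondrial gene of the list in sham, at 540, 746 and 686 FPKM, against 284, 230 and 373 after ligation, and fell by 1.17 ± 0.27 (limma adjusted p = 0.0233). Decr1, the dienoyl-CoA reductase needed for unsaturated chains, read 57.9, 90.1 and 79.8 FPKM in the sham libraries and 27, 20 and 51.2 after ligation, and fell by 1.27 ± 0.32 (limma adjusted p = 0.0293).

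The subunits of the trifunctional protein, Hadha and Hadhb, lay lower in every BDL library than in any sham library and did not pass (limma adjusted p = 0.0771 and 0.0563). Hadha read 146 ± 6.32 and 78.3 ± 14.1 FPKM in the sham libraries and BDL, and Hadhb 41.1 ± 4.48 and 23.9 ± 7.23 (SD, n = 3). Of the windows of 100 bases of Hadhb, 14.8% also occur in other genes, chiefly Gm13910, so its reads may have been divided in all groups. The isomerase Eci1 read 105 ± 7.1 and 55.6 ± 15.3 FPKM and did not pass either (limma adjusted p = 0.109). For the short-chain hydratase Echs1, the 3-hydroxyacyl-CoA dehydrogenase Hadh and the carnitine acetyltransferase Crat the groups overlapped, with log2 differences of 0.07, -0.09 and -0.04 and 95% intervals within -0.60 and 0.50.

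**Figure D3:**
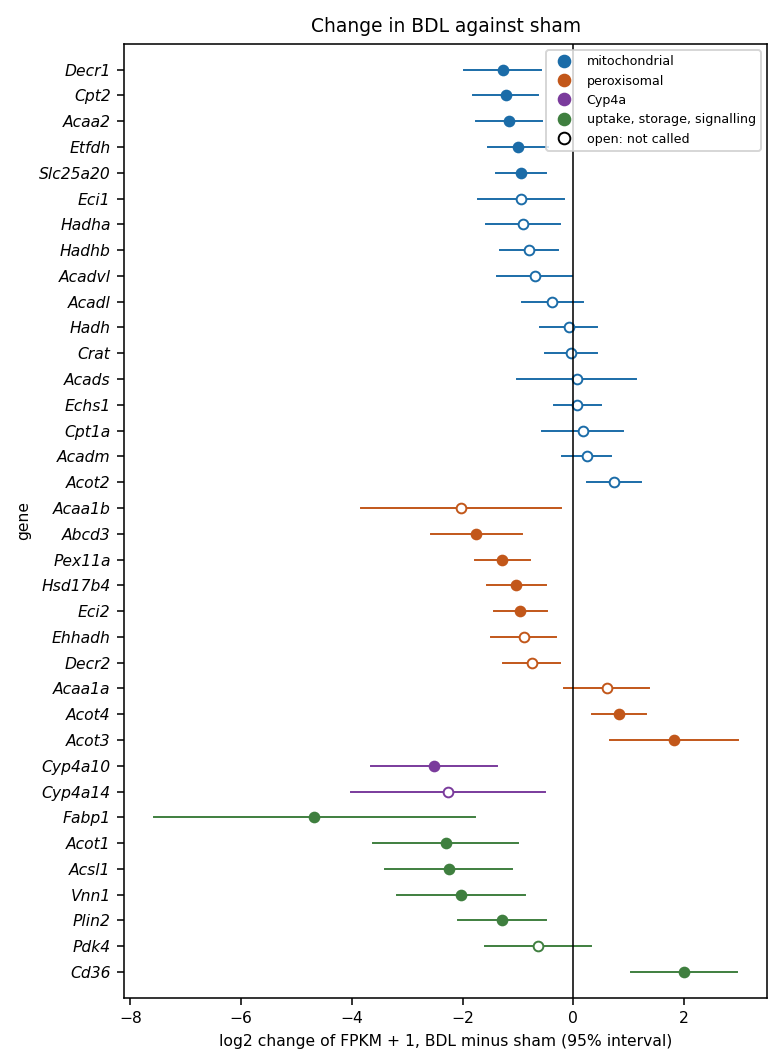
Log2 change of FPKM + 1 in BDL against sham for the 36 tested genes, by role, with its 95% interval from limma; filled points passed at an adjusted p under 0.05. The filled points are 15 lower genes and the higher genes Cd36, Acot3 and Acot4, and Fabp1 has the widest interval, from -7.58 to -1.78.

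The uptake and storage genes held the steepest difference of the list. Fabp1, the liver fatty acid binding protein of the cytosol (chromosome 6, 71199879 to 71205034), read 4926, 8834 and 6545 FPKM in sham, 61.7, 127 and 2099 in BDL, and 7142, 619 and 200 in BDL plus senkyunolide A. BDL 3 was far above the other BDL libraries and still below every sham library. The fall was 4.68 ± 1.32 on the log2 scale (limma adjusted p = 0.0447). The call held in 9 of 19 alternatives. It ended with quantile normalization, with either lower filter, and without any 1 of the sham libraries, BDL 1, BDL 2 or library 2 of the treated group.

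The start of Fabp1 is shown because it was the only one of the 30 genes with a promoter in the RefSeq table whose window held a direct repeat of the kind PPARA and RXR bind. Cyp4a10, Cyp4a14, Vnn1, Decr1, Crat, Hsd17b4 and Acaa2 had no promoter there and were not searched. The motif searched was AGGNCA repeated in the same direction after a spacer of 1 base, on either strand, from 250 bases before to 50 after the start of transcription. It occurs in 0.381% of all 32851 such windows. The 120 bases before the start, on the plus strand of GRCm38 (chr6:71199759-71199878), have the match in capitals at -67 to -55, read as its reverse complement.
Fabp1: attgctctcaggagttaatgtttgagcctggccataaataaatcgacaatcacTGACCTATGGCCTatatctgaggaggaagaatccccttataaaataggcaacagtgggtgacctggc
The match describes the letters only. No match in the other windows says nothing of sites farther away, and no binding was measured.

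Acsl1, the main liver enzyme that activates long-chain fatty acids to acyl-CoA, read 242, 135 and 181 FPKM in the sham libraries and 39.1, 36.9 and 35.5 in BDL. The BDL libraries were close together, and the gene fell by 2.25 ± 0.52 (limma adjusted p = 0.023). Plin2, the coat protein of lipid droplets, read 190, 195 and 231 FPKM in the sham libraries and 58.6, 58.3 and 167 after ligation, and fell by 1.29 ± 0.36 (limma adjusted p = 0.043). Vnn1, a pantetheinase, read 16.5, 33.9 and 26.6 FPKM in the sham libraries and 3.75, 1.97 and 16.9 in BDL, so that BDL 3 lay above sham 1, and fell by 2.02 ± 0.53 (limma adjusted p = 0.0343). As for Fabp1, BDL 3 was the highest BDL library for both.

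Cd36, a fatty acid translocase and scavenger receptor that macrophages and endothelium also make, moved the other way. It read 8.12, 14.7 and 10.9 FPKM in sham, 63.3, 38.8 and 41.7 in BDL, and 14.5, 39.2 and 60.5 in BDL plus senkyunolide A. It rose in BDL by 2.0 ± 0.43 (limma adjusted p = 0.0187), without overlap. The macrophage and monocyte markers summed to 638, 2207 and 2665 FPKM in BDL plus senkyunolide A libraries 1, 2 and 3, the same order as Cd36 there. In BDL libraries 1, 2 and 3 they summed to 955, 1524 and 1264 FPKM, where Cd36 was highest in the library with the lowest sum. Their part in its level was not tested. Pdk4, the kinase that turns off pyruvate oxidation, read 6.95, 4.48 and 4.89 FPKM in the sham libraries and 1.9, 1.57 and 8.17 in BDL, with overlap (log2 difference -0.64 ± 0.43, limma adjusted p = 0.368). The hormone gene Fgf21 read 0.987 ± 0.515, 0.728 ± 0.198 and 0.697 ± 0.224 FPKM in the 3 groups (SD, n = 3) and was too low to be tested.

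The acyl-CoA thioesterases, which split acyl-CoA to free fatty acid, lie in 1 cluster on chromosome 12 (83987861 to 84060400) in the order Acot2, Acot1, Acot4 and Acot3. Their products are mitochondrial, cytosolic and, for Acot4 and Acot3, peroxisomal. Acot1 read 8.06, 15.8 and 14.7 FPKM in sham, 0.551, 1.49 and 4.07 in BDL, and 11.2, 1.03 and 2.35 in BDL plus senkyunolide A. It fell in BDL by 2.31 ± 0.60 (limma adjusted p = 0.0337), without overlap.

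Acot3 and Acot4 rose. Acot3 read 0.224, 1.57 and 0.521 FPKM in sham, 9.45, 8.86 and 1.04 in BDL, and 1.44, 1.01 and 1.61 in BDL plus senkyunolide A. Its rise in BDL of 1.82 ± 0.53 (limma adjusted p = 0.0486) came with overlap, since BDL 3 lay below sham 2. Acot4 read 3.45, 3.78 and 4.13 FPKM in sham, 8.6, 8.48 and 5.54 in BDL, and 3.6, 5.07 and 5.68 in BDL plus senkyunolide A, and rose in BDL by 0.82 ± 0.22 (limma adjusted p = 0.0394). Acot2 read 1.22, 1.61 and 1.81 FPKM in the sham libraries and 3.3, 4.5 and 2.16 in BDL, without overlap, and did not pass (0.73 ± 0.22, limma adjusted p = 0.0568). The call of Acot3 held in 8 of 19 alternatives and that of Acot4 in 9, each in 3 of the fits that left out 1 library. Acot3 was lost with either lower filter and with no variance trend, and Acot4 with no filter and with the replicate block. Both calls ended under median-ratio scaling and under quantile normalization. These moved the median log2 difference of all genes from 0.15 to 0.00 and -0.03. The split of the 36 genes was then 1 higher and 19 lower, and 1 higher and 16 lower. Over all tested genes the shares were 5.51% higher and 4.77% lower with the first, and 4.57% and 4.79% with the second.

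**Figure D4:**
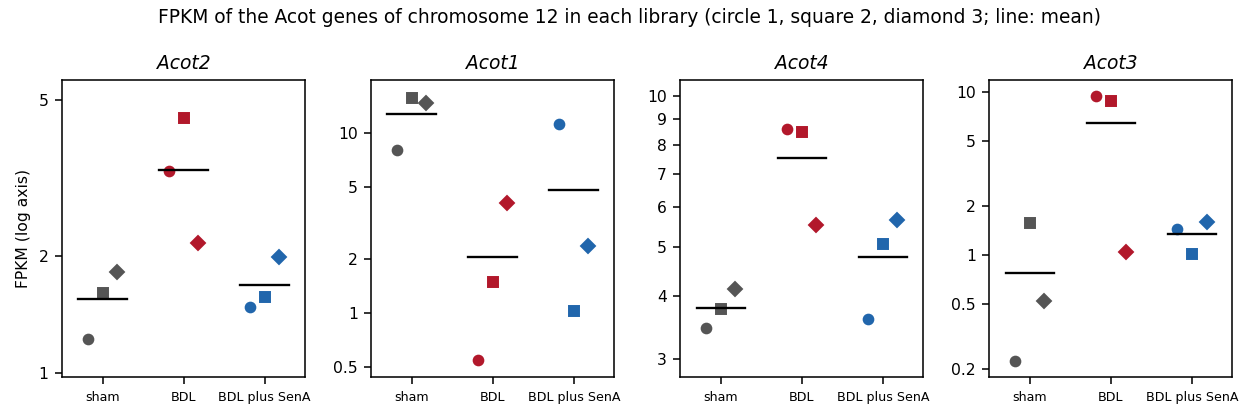
FPKM on a logarithmic axis of the 4 Acot genes of the chromosome 12 cluster in each library, by group; circles, squares and diamonds are libraries 1, 2 and 3, the line is the group mean and SenA is senkyunolide A. Acot1 is lower in BDL than in sham, and Acot3 and Acot4 are highest in BDL libraries 1 and 2.

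The coding sequences of Acot1 and Acot2 are identical at 95.5% of aligned bases, those of Acot1 and Acot3 at 84% and those of Acot3 and Acot4 at 74.2%. Acot2 shares 17.1% of its windows of 100 bases with Acot1. Acot3 shares 13.8% with other genes, chiefly the overlapping Gm49366, and Acot4 shares 0.336%. The levels of Acot1, Acot2 and Acot3 are therefore uncertain, and that of Acot4 less so.

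In a wider list of 112 further genes of PPARA, its partners and fatty acid use, 99 genes were tested. Of these 15 fell and 4 rose in BDL, against 2.84% and 8.12% of all tested genes. The share that rose was thus below that of all tested genes. The median log2 difference was -0.15 over the 112, against 0.15 over all tested genes. Ppara itself read 27.4, 16.9 and 21 FPKM in sham, 11.4, 9.18 and 6.64 in BDL, and 13.4, 5.79 and 4.73 in BDL plus senkyunolide A. It fell in BDL by 1.18 ± 0.34 on the log2 scale (limma adjusted p = 0.0487), without overlap. Its partner Rxra read 55.7 ± 22.6 and 76.9 ± 28.6 FPKM in the sham libraries and BDL (log2 difference 0.47 ± 0.33, limma adjusted p = 0.381), and the coactivator gene Ppargc1a 0.542 ± 0.155 and 1.1 ± 0.488 (SD, n = 3), too low to be tested.

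Acat1, the thiolase of the ketone body pathway, fell from 138 ± 19.5 to 55.3 ± 4.42 FPKM (SD, n = 3; limma adjusted p = 0.00954). Angptl4, a secreted inhibitor of lipoprotein lipase, overlapped (-1.17 ± 0.45, limma adjusted p = 0.118).

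Of the other called falls, those with the smallest p were in the peroxisomal membrane protein Pxmp4 (-1.56 ± 0.25), the P450 genes Cyp4b1 (-1.43 ± 0.23) and Cyp4v3 (-1.75 ± 0.30), retinol saturase (Retsat, -2.81 ± 0.51) and Scp2 (-1.75 ± 0.36), which encodes a peroxisomal thiolase and a sterol carrier protein. The 4 that rose, named after their values were seen, were the thioesterase Acot9, the peroxisomal transporter Abcd2, the triglyceride lipase Pnpla2 and the uncoupling protein Ucp2, by 0.95 to 1.84. Within that list, 4 of 10 tested P450 and omega-oxidation genes fell, against 2.84% of all tested genes, with a median of -1.19.

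The comparison of BDL plus senkyunolide A with BDL asked what the compound changed in ligated mice. None of the 36 genes passed in limma, the smallest adjusted p being 0.407, and 4 were higher and 4 lower at an unadjusted p under 0.05, against 3.34% and 8.92% of all tested genes. Over all tested genes the shares called higher and lower were 0% and 0.0101%. The median log2 difference was 0.08 for mitochondrial, -0.03 for peroxisomal, 0.92 for Cyp4a and 0.31 for uptake, storage and signalling genes, against -0.12 over all tested genes. 

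In 4 genes every library of the treated group lay above every BDL library, and all were mitochondrial. They were Acaa2, Slc25a20, Hadhb and Echs1. Acaa2 read 660, 461 and 455 FPKM against 284, 230 and 373 in BDL, a difference of 0.83 on the log2 scale (95% interval 0.24 to 1.43, limma adjusted p = 0.407). Slc25a20 read 62.9, 48 and 42.7 FPKM against 35, 36.9 and 36.3 (0.48 ± 0.21), Hadhb 32.1, 36.5 and 35.5 against 24.3, 16.5 and 30.9 (0.56 ± 0.24), and Echs1 187, 187 and 192 against 168, 166 and 147 (0.24 ± 0.19). In Acadm and Acot2 every treated library lay below every BDL library (-0.39 ± 0.20 and -0.66 ± 0.22). Over all tested genes the shares without overlap were 3.25% higher and 14.3% lower.

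Other members spread widely in this comparison. Cpt1a read 47, 27.3 and 28.7 FPKM with the compound, a log2 difference of -0.84 with an interval from -1.57 to -0.12. The intervals of Fabp1 (-0.99 to 4.81), Acaa1b (-2.0 to 1.60), Cyp4a14 (-0.75 to 2.76) and Acsl1 (-1.35 to 0.93) each reached to both sides of 0. Without library 1 of the treated group the difference was 0.46 (-1.99 to 2.91) for Fabp1, -1.32 (-2.48 to -0.16) for Acaa1b, 1.56 (-0.23 to 3.35) for Cyp4a14 and -0.99 (-1.55 to -0.43) for Acsl1. That of Cpt1a was then -1.08 (-1.80 to -0.37), and none of these passed (limma adjusted p = 0.0811 to 0.818). With all libraries in, the intervals of Pex11a and Ehhadh were narrower than those of the genes above, -0.53 to 0.47 and -0.62 to 0.56. Cyp4b1 of the wider list read 12.1, 10.2 and 9.04 FPKM against 3.01, 3.6 and 5.47 in BDL, without overlap, and did not pass (1.21 ± 0.23, limma adjusted p = 0.335). Without library 1 of the treated group again none of the 36 passed, and the mitochondrial median moved to -0.27. Without BDL 3, Acot3 passed as lower (-2.12, limma adjusted p = 0.0159), with 0.265% of all tested genes called lower in that fit.

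Within the treated group, library 1 was unlike libraries 2 and 3 for these genes. It was the highest of its group for 26 of the 37 genes. Of the 15 genes that fell in BDL it lay above every BDL library for 13 and at or above the lowest sham library for 5. Libraries 2 and 3 lay below every sham library for all 15. Fabp1 (7142 FPKM against 619 and 200), Acaa1b (402 against 48.2 and 30.3), Acsl1 (95.2 against 19.8 and 16.8), Acot1 (11.2 against 1.03 and 2.35) and Acads (88.2 against 22.9 and 20.7) show this, while Cyp4a14 was lowest there (10.2 against 31.9 and 37). The 15 genes were picked on the same BDL and sham values, which by itself favours places above BDL and below sham. For these counts, and for the 26 of 37, no share over all tested genes was computed. Summed markers of other cells differed between library 1 and libraries 2 and 3. Biliary markers summed to 122 FPKM in library 1 against 478 and 483, and neutrophil markers to 18.7 against 108 and 97.7. Against the sham mean, the median log2 level of the biliary markers was 0.17, 0.17 and 0.48 in libraries 1, 2 and 3. For biliary markers as a set, libraries 1 and 2 were thus alike. The hepatocyte markers had medians of 0.26, -0.19 and -0.17 in the same order. The part of these cells in the differences was not tested.

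The comparison of BDL plus senkyunolide A with sham asked how far ligated and treated mice were from unligated ones. It shares the sham libraries with the first comparison. Of the 36 genes 2 fell and none rose, with 1 higher and 16 lower at an unadjusted p under 0.05 in limma, against 15.6% and 7.64% of all tested genes. Over all tested genes the shares called lower and higher were 0.405% and 1.76%, in all 2.17%. Pex11a read 17.1, 12.7 and 10.1 FPKM and fell by 1.31 ± 0.23 (limma adjusted p = 0.0314), and Acsl1 fell by 2.47 ± 0.52 (limma adjusted p = 0.0408). Cpt2 and Abcd3 did not pass, with log2 differences of -1.05 ± 0.26 and -1.53 ± 0.37 (limma adjusted p = 0.0573 and 0.0538). The role medians were -0.47 for mitochondrial, -0.71 for peroxisomal, -1.47 for Cyp4a and -0.98 for the remaining genes, against 0.04 over all tested genes.

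Without library 1 of the treated group 19 genes passed as lower and 1, Cd36, as higher, against 6.01% and 12.5% of all tested genes. Of the mitochondrial genes these were Cpt2, Slc25a20, Etfdh, Eci1, Acadvl, Acadl (-0.94 ± 0.19, limma adjusted p = 0.00628), Acads (-1.31 ± 0.32, adjusted p = 0.015) and Hadha (-1.36 ± 0.23, adjusted p = 0.00215). Acaa1b (-3.35 ± 0.53, adjusted p = 0.00129), Fabp1 (-4.22 ± 1.11, adjusted p = 0.0224) and Acsl1 (-3.24 ± 0.25, adjusted p = 1.96e-05) were also among them. Leaving out that library thus moved the count from 2 to 19 lower genes, while over all genes it went from 40 to 596. With all libraries of its own group in, the calls of Pex11a and Acsl1 each ended when any 1 sham library was left out. Both ended without library 2 or 3 of the treated group, and that of Acsl1 also without BDL 1 or BDL 2.

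In the wider list 1 of 99 tested genes fell against sham, with 0.405% of all tested genes called lower. It was Aldh3a2, the fatty aldehyde dehydrogenase, which went from 40, 44.3 and 51.6 FPKM to 25.5, 17 and 10 (-1.41 ± 0.29, limma adjusted p = 0.0386). Ppara read lower than every sham library in all 3 treated libraries and did not pass (-1.44 ± 0.34, limma adjusted p = 0.0521).

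**Figure D5:**
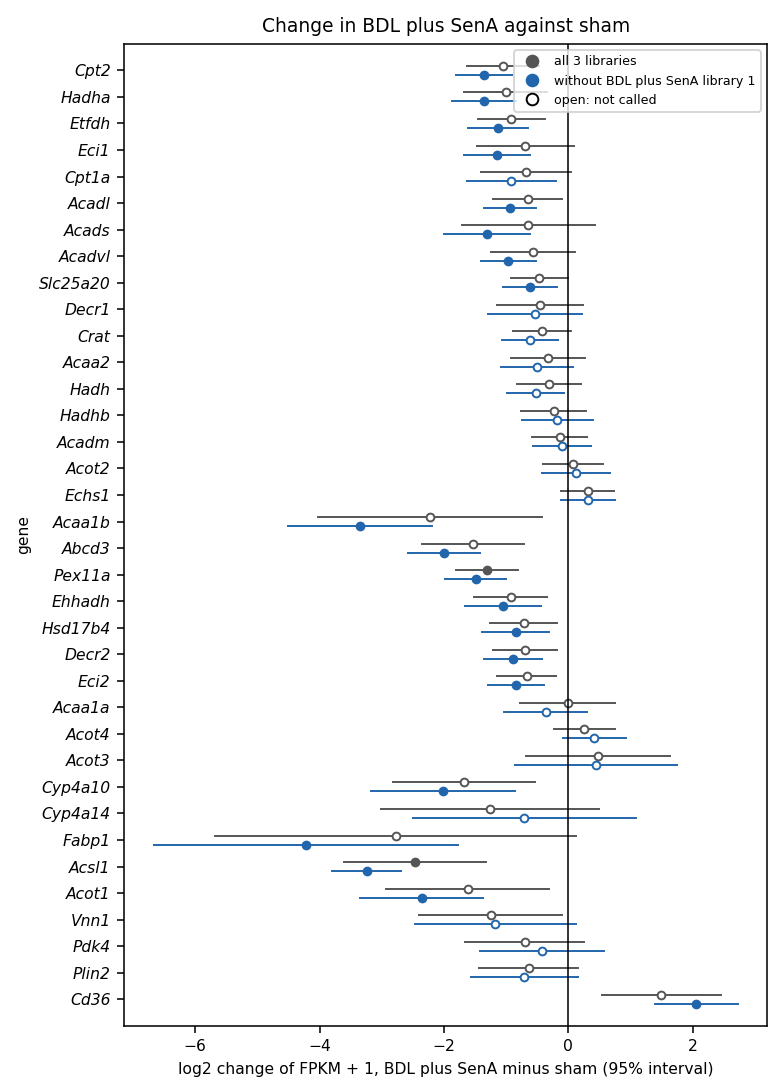
Log2 change of FPKM + 1 in BDL plus senkyunolide A against sham for the 36 tested genes, with its 95% interval from limma, using all 3 treated libraries (grey) and without library 1 (blue); filled points passed at an adjusted p under 0.05. With all libraries only Pex11a and Acsl1 are filled, and without library 1 there are 19 filled lower points and Cd36.

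The BDL libraries also differed among themselves. BDL 3 was the highest of its group for 22 of the 37 genes, and BDL 2 the lowest for 17. The same counts were not made over all tested genes. Against the sham mean, the uptake, storage and signalling genes had a median of -1.98 in BDL 1, -2.03 in BDL 2 and -0.41 in BDL 3, and the peroxisomal genes -0.93, -1.20 and -0.57. The mitochondrial genes lay at -0.66, -0.77 and -0.40. For the Cyp4a pair the order was different, at -2.10, -2.63 and -2.44. Biliary epithelial markers summed to 172, 149 and 675 FPKM in BDL 1, 2 and 3, so BDL 3 was also the highest there, and the part of this in the results was not tested.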

How the data were processed

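PolyA RNA was sequenced from 9 libraries, 3 per group. The authors deposited 1 table of FPKM values. The build was GRCm38 (mm10) and DESeq2 1.20.0, featureCounts 1.5.0-p3, HISAT2 2.0.5, CASAVA 1.8 and fastp are named, per the submitters' processing notes. Settings, annotation and strandedness of counting are not stated there. Columns were matched to samples by title. Whether each library came from its own animal is not stated, so p-values reflect only the spread among these 9 libraries, possibly technical. No libraries held identical values (correlation within groups 0.921 to 0.993).

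Values were analysed as log2(FPKM + 1), which understates changes of low genes. The 9884 genes with a mean of at least 1 FPKM were fitted with limma 3.58.1 in R 4.3.3 (3 groups, variance trend, two-sided), adjusted by Benjamini-Hochberg over all of them and called under 0.05. Medians by role cover every listed gene. Depth was estimated from the deposited FPKM of genes with 1 transcript: at the chosen depth 31.3% to 37.2% of low values were within 0.02 of a whole fragment. Whole counts could not be read back, and no count model was run.

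The members, roles, wider list and markers were chosen with earlier results of these data known. All 37 genes are named; of the wider list, a few fixed genes and up to 6 called ones per comparison with the smallest p are named, and some items are not reported here. The procedure was run on simulated data with noise independent between genes and libraries and equally wide in all groups. Such data hold no divergent library, so they cannot show how calls depend on single libraries. Alternatives were the pseudocount, filters, scalings, fits of 2 groups, variance model, library weights, a replicate block and each library left out. Gene positions and promoters are from RefSeq (GRCm38.p6) and transcripts from GENCODE M21.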

Additional observations from a re-analysis of the deposited data

How the results depend on the processing

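None of the 18 genes called in BDL against sham changed direction under any of 19 alternatives, but the calls depend on the libraries. With each library left out in turn, 0 to 22 genes passed as lower (15 with all libraries) and 0 to 4 as higher (3). Without sham 2, sham 3 or BDL 2 the lower counts were 1, 0 and 1. Without BDL 1 the count was 7, and without BDL plus senkyunolide A library 1 it was 22. Over all tested genes the shares called lower were 0.332%, 0.282%, 0.294%, 1.22% and 4.6% in the same order. In BDL plus senkyunolide A against BDL these ranges were 0 to 0 higher and 0 to 1 lower, and against sham 0 to 1 higher and 0 to 19 lower. The mitochondrial median in the second comparison ranged from -0.27 to 0.23 and the uptake, storage and signalling median from 0.084 to 0.83. Fits without a library have fewer samples.

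With no filter, which tests 16802 genes, 5 passed as lower and 0 as higher in BDL against sham, and 0 as lower in BDL plus senkyunolide A against sham. In the latter 1 passed as lower with a minimum of 0.1 FPKM, 1 with quantile normalization and 0 when only the 2 groups were fitted. Under median-ratio scaling and under quantile normalization 1 passed as higher in BDL against sham. Library weights in limma, whose estimation stopped before its convergence tolerance, gave 24 lower and 5 higher in BDL against sham, 9 and 7 in the second comparison and 27 and 3 in the third; over all genes it called 3033 higher and 1006 lower in the first, 1454 and 1876 in the second and 3747 and 2054 in the third. The cause of these differences was not tested.

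Whether same-numbered libraries share more than a number is not stated. Their deviations from the group means correlated at -0.385 to 0.25, which does not settle it. With the replicate block 15 genes passed as lower and 2 as higher in BDL against sham, 0 in the second comparison (0 of all genes), and 3 as lower in the third. In the first, Fabp1 (adjusted p = 0.0629 in limma) and Acot4 (0.0684) were lost and Cyp4a14 (0.0368) was gained. Over all genes the block changed the counts from 803 higher and 281 lower to 669 and 213 in the first comparison, and from 174 and 40 to 317 and 57 in the third. Depth is not stated by the authors, and Fgf21 and Ppargc1a lay under the filter.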
